A study of Mus musculus with 6 samples.

Results

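The genes described here encode enzymes and membrane proteins of the lysosome. They are a list of 36 symbols, and all 36 were found among the 31053 genes of the count matrix. The list was given by name and its rule used no measured value, but it was chosen with earlier results of these data known. The cells came from the brains of female SCID mice, aged 6 to 8 weeks by the labels, whose brain had received 50000 cells of the human glioma line U87. In 3 mice the U87 cells expressed IL-33 and the animals were killed at 3 weeks, and in 3 mice the U87 cells carried the pcDNA vector and the animals were killed at 6 weeks. CD45+ cells, which are leukocytes, were taken from the hemisphere with the tumor after a Percoll gradient and sorted by flow cytometry, and RNA was counted cell by cell with 3′ chemistry and unique molecular identifiers (UMIs). SCID mice lack mature T and B cells, so the host response in every sample was that of an innate immune system. In the gated microglia the T cell genes Cd3e and Cd3d held 10 and 18 UMIs, and the B cell gene Cd79a held 4. T and B cells would hardly meet that gate and counts outside it are not given, so these values cannot show their absence.

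Lysosomes are acidic organelles in which proteins, lipids, sugars and nucleic acids taken up or recycled by the cell are broken down. A proton pump, the vacuolar ATPase (V-ATPase), keeps them acidic, soluble hydrolases do the digestion, small activator proteins lift lipids towards the enzymes, and heavily glycosylated membrane proteins line and protect the limiting membrane. Many of these genes carry a short promoter motif read by the transcription factors Tfeb and Tfe3. Microglia, the resident macrophages of the brain, and macrophages that enter from blood depend on this system to digest cells, myelin and lipoproteins, and inherited loss of several of the enzymes causes storage disease of the nervous system.

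The matrix pooled 6 libraries, 40411 barcodes and 105560763 UMIs. The libraries were marked by a number from 1 to 6 after each barcode (the suffix), which none of the sample labels ties to a mouse, so IL-33 and pcDNA tumors were not compared, no difference was tested, and the range over suffixes is given as a description. Each suffix held 2879 to 10217 barcodes, with a median of 1536 to 3503 UMIs per barcode. In all, 3890 of 29579 barcode sequences occurred under more than 1 suffix. These made up 14722 of the barcodes, at a median of 929 UMIs against 3137 for the others. Among the 15 pairs of suffixes, 509 to 3428 sequences were shared, and the UMI totals of a shared sequence were correlated between suffixes (Spearman's rho 0.80 to 0.97), so results that rest on such barcodes are given with and without them.

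After a filter on genes and mitochondrial reads, 38751 barcodes were kept. Cell groups were gated on marker genes that are not on the lysosomal list. Microglia were the 35234 cells with at least 0.5% of their UMIs on Tmem119, Gpr34, Olfml3, P2ry12, Cx3cr1 and Selplg that met no marker rule of another lineage. The paper reports bone marrow-derived macrophages with low levels of core microglial genes, Selplg, P2ry12 and Tmem119 among them. This gate can therefore take in such cells, and microglia below means cells of this gate. The other groups were 140 NK-like cells (led by Gzma and Nkg7), 59 granulocyte-like cells (S100a8 and S100a9), 217 monocyte-like cells (Plac8, Ccr2 and Ly6c2), 65 dendritic-like cells (Cd209a) and 191 choroid plexus-like cells (Ttr and Enpp2). The last are epithelial cells of the structure that makes cerebrospinal fluid and are not leukocytes. Each of these gates excluded cells with 3% or more of their UMIs on a second list of microglial genes (Cst3, C1qa, C1qb, C1qc, P2ry12 and Tmem119). Cells that met the marker rules of both monocytes and dendritic cells, and no other, were counted as dendritic-like. The dendritic-like cells were all in suffixes 4, 5 and 6 (24, 11 and 30 cells). These suffixes also held 84, 31 and 78 of the monocyte-like and 47, 7 and 65 of the NK-like cells. Ratios below are to microglia of all 6 suffixes, so differences between suffixes enter the ratios of these groups. Levels are UMIs per 1000000 UMIs of a group (CPM), and 95% intervals are exact Poisson intervals, which cover counting error only. Since 1 UMI stands for 1 captured 3′ end, CPM was not divided by transcript length when genes were compared. A border macrophage gate found 3 cells, and this group was not described.

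In microglia the 36 genes together held 1.77% of all UMIs (95% interval 1.77 to 1.78%). Over the 6 suffixes this share was 1.72% at the lowest, 1.78% at the median and 1.85% at the highest, and without shared barcode sequences it was 1.70%. A few genes made up most of it. The 3 most abundant held 40.4% of the lysosomal UMIs and the 12 most abundant held 79.2%, while 5 genes were at or above 1000 CPM, 20 lay between 100 and 1000, and 11 were below 100.

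**Figure D1:**
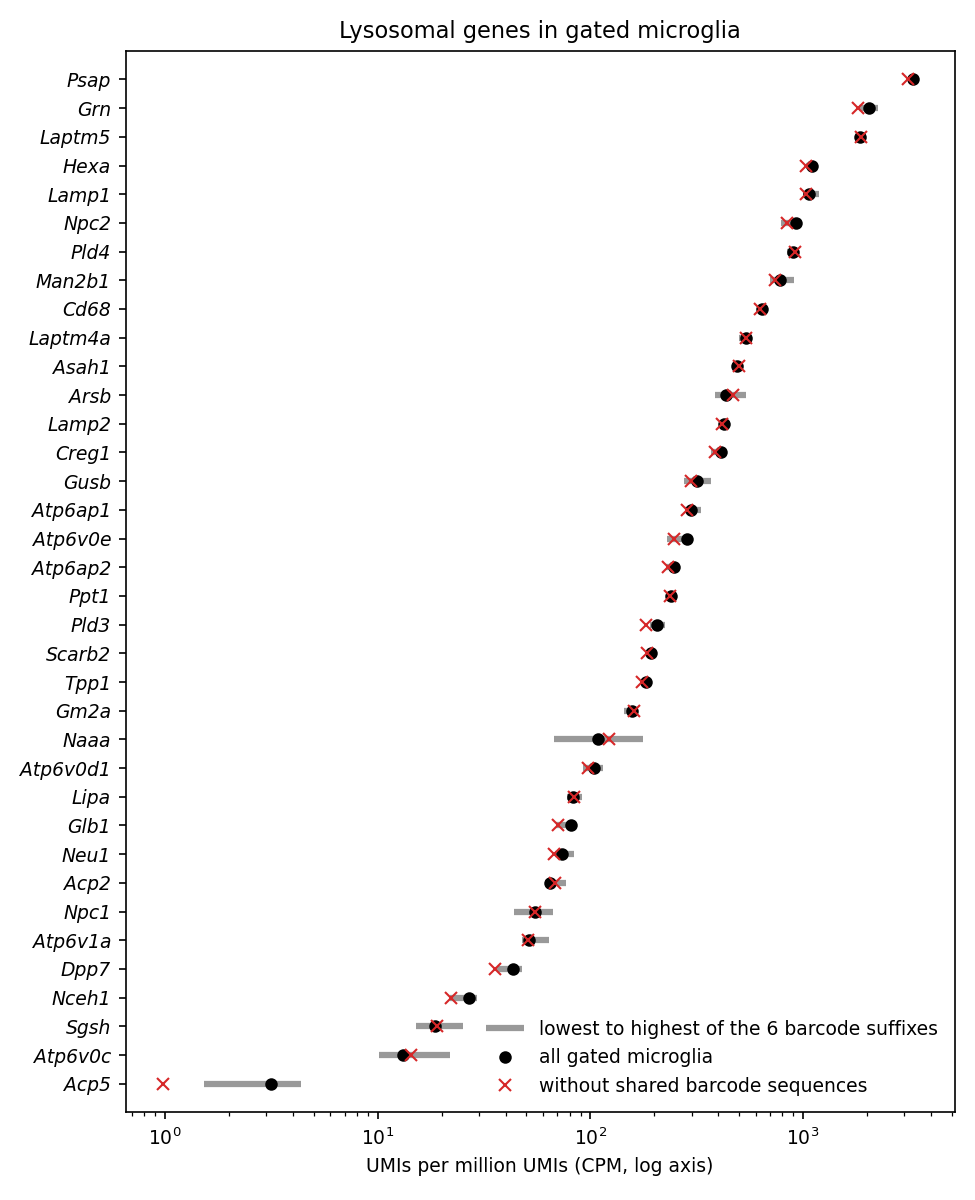
Level of each lysosomal gene in gated microglia, in CPM on a log axis. Dots show all gated microglia, grey bars run from the lowest to the highest of the 6 suffixes, and red crosses leave out shared barcode sequences. The genes run from 3.17 CPM for Acp5 to 3279 CPM for Psap, and most grey bars are short beside that span.

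Psap encodes prosaposin, the precursor of the saposins that present sphingolipids to their hydrolases. It was the most abundant of the list at 3279 CPM (95% interval 3267 to 3291), with 3104, 3289 and 3442 CPM as the lowest, median and highest suffix. Hexa, the alpha subunit of beta-hexosaminidase, which degrades the ganglioside GM2, stood at 1105 CPM (suffixes 1037, 1105 and 1146). Man2b1, lysosomal alpha-mannosidase, stood at 779 CPM (suffixes 702, 758 and 905). These sugar-chain enzymes and their activator were thus not evenly expressed, because Gusb (beta-glucuronidase) was at 317 CPM, Gm2a (the GM2 activator) at 157, Glb1 (beta-galactosidase) at 80.8 and Neu1 (a sialidase) at 73.3. Between the sulfatases the gap was wider. Arsb, which removes sulfate from dermatan sulfate, reached 435 CPM (suffixes 388, 427 and 540), and Sgsh, which acts on heparan sulfate, reached 18.6.

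Of the genes for lipid handling, Npc2, a soluble carrier that hands cholesterol to the membrane protein Npc1, was at 923 CPM (suffixes 788, 935 and 983). Npc1 itself was at 55.2 CPM. Asah1, acid ceramidase, was at 490 CPM (suffixes 463, 490 and 511), and the remaining lipid enzymes were lower, with Ppt1 (which removes palmitate from proteins) at 240, Naaa (an acid amidase for N-acylethanolamines) at 109, Lipa (acid lipase for cholesteryl esters and triglycerides) at 82.7 and Nceh1 (a cholesteryl ester hydrolase) at 26.8. Pld4 and Pld3 carry a phospholipase D name but degrade single-stranded nucleic acids in endolysosomes. Pld4 was at 895 CPM (suffixes 842, 913 and 935) and Pld3 at 207. The peptidases Tpp1 and Dpp7 were at 183 and 43.5 CPM, and the acid phosphatases Acp2 and Acp5 at 64.9 and 3.17.

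Grn, the precursor of the granulins, was the second most abundant gene of the list at 2041 CPM (95% interval 2031 to 2050, suffixes 1841, 2061 and 2256). Creg1, a secreted glycoprotein found in lysosomes, was at 410 CPM. Of the membrane proteins, Laptm5, which is largely restricted to blood-derived cells and macrophages, led with 1846 CPM (suffixes 1794, 1824 and 1977), followed by Lamp1 with 1064 (suffixes 1005, 1051 and 1185), Cd68 with 644 (suffixes 620, 643 and 666) and Laptm4a with 540 (suffixes 501, 532 and 577). Lamp2, the partner of Lamp1 in lining the membrane, was at 428 CPM, and Scarb2, a lysosomal membrane protein that also serves as a sorting receptor, at 193. The V-ATPase genes were all of moderate or low level in this 3′ assay. The accessory subunits Atp6ap1 and Atp6ap2 were at 298 and 248 CPM, the membrane sector subunits Atp6v0e, Atp6v0d1 and Atp6v0c at 284, 104 and 13.2, and the catalytic subunit Atp6v1a at 51.3.

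Between suffixes the levels held close together for most of the list. In 31 of 36 genes the highest suffix was under 1.5-fold above the lowest, and Scarb2 had the smallest spread at 1.04-fold. The exceptions were Acp5 (2.86-fold), Naaa (2.60-fold, from 67.8 to 176 CPM), Atp6v0c (2.15-fold), Sgsh (1.65-fold) and Npc1 (1.52-fold). Acp5 also moved most when shared barcode sequences were left out, from 3.17 to 0.981 CPM.

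In the mm10 genome (GENCODE M21) the 36 genes lie on 17 chromosomes, so they are not a cluster of neighbours. Psap is at chr10:60277627-60302597 on the plus strand, Grn at chr11:102430315-102437048 on the plus strand, Lamp1 at chr8:13159161-13175338 on the plus strand, Gm2a at chr11:55098115-55113029 on the plus strand, Nceh1 at chr3:27182965-27284608 on the plus strand and Naaa at chr5:92257659-92278170 on the minus strand. No 50-base word from the last 500 bases of a member's longest protein-coding transcript was found anywhere in another gene's transcripts, in 36 of 36 members. RefSeq promoter sequences, each from 250 bases before to 50 after a start, were matched for 34 of the 36 genes. The core letters of the Tfeb and Tfe3 motif, CACGTG, which read the same on both strands, were found in 8 of the 34 genes (23.5%) and in 8.09% of 27025 genes with a promoter. The longer form GTCACGTG, on either strand, was found in 4 of 34 (11.8%) against 2.55% of the 27025 genes, and every longer match contains the core. The windows below are shown because they hold that motif in the gene with the most matches (Lamp1), in the other 3 with the longer form, and in Nceh1 and Dpp7, which are described further on. The core was also found in Atp6v1a and Atp6v0e, likewise described further on, whose windows are not shown. Capitals mark the match, and the letters run 5′ to 3′ on the gene's strand in build GRCm38.p6, at chr8:13159080-13159171 (plus) for Lamp1, chr9:114401008-114401055 (plus) for Glb1, chr8:105566042-105566089 (minus) for Atp6v0d1, chr11:119355512-119355559 (minus) for Sgsh, chr3:27182958-27183003 (plus) for Nceh1 and chr2:25356380-25356425 (minus) for Dpp7.
Lamp1: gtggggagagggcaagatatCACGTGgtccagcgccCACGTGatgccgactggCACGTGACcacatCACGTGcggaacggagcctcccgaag
Glb1: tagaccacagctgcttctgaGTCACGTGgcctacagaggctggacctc
Atp6v0d1: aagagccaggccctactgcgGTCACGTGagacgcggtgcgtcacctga
Sgsh: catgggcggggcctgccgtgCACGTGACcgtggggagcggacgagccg
Nceh1: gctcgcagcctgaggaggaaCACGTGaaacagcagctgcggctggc
Dpp7: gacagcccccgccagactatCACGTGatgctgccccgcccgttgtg
Lamp1 held 4 matches within this window. A match describes the letters only, and binding was not measured.

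The lysosomal share moved with the depth of the cells. Microglia were put in bins starting at 500, 1000, 2000, 3000 and 4000 UMIs per cell, and the share was 2.08, 2.06, 1.63, 1.70 and 1.80% in this order. The shallow cells were mostly shared barcode sequences, 7300 of 7974 in the first bin and 4151 of 6558 in the next, against 229 of 4886 in the deepest. Without them the shares were 2.00, 1.74, 1.58, 1.69 and 1.79%. With shared sequences included and every cell thinned to 500 UMIs, the 5 shares were 2.07, 2.09, 1.63, 1.68 and 1.79%. Thinning at random leaves a share unchanged on average, so these values cannot show whether depth itself matters. In all gated microglia Psap followed the course of the share, from 4094 CPM in the first bin to 3017 in the middle bin and 3241 in the deepest.

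Single genes moved with depth in both directions. Of the 33 genes with a mean of at least 20 CPM over the shallowest and the deepest bin, 5 were at least 1.5-fold higher in shallow cells, where 11.9% of all 5472 such genes were. They were Nceh1 (46.1 against 24.0 CPM), Dpp7 (70.9 against 37.5), Atp6v0e (458 against 255), Atp6ap2 (356 against 220) and Glb1 (121 against 77.0). Naaa (35.7 against 164 CPM) and Arsb (245 against 470) were at least 1.5-fold lower, where 7.27% of all genes were, so both shares were near those of all genes. Without shared barcode sequences 3 other genes were higher (Npc1, Lipa and Acp2), where 15.5% of all genes were, and 0 were lower, where 9.07% were. The ratio of Naaa was then 0.891 in place of 0.218 and that of Nceh1 1.33 in place of 1.92. Ratios between microglial states below were therefore taken against other microglia weighted to the same mix of UMI bins.

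The lysosomal share was also higher in cells with more Apoe, the lipoprotein gene known for its rise in activated microglia. Microglia were divided by the share of their UMIs on Apoe, at 0.1, 0.2, 0.5, 1 and 2%, and each bin was standardised to the same mix of depths. From the lowest to the highest Apoe bin the lysosomal share was 1.63, 1.66, 1.70, 1.76, 1.84 and 2.02%. Without shared barcode sequences, which were 7230 of the 9329 cells in the top bin, it was 1.61, 1.64, 1.67, 1.73, 1.80 and 1.89%. The order also held inside the deepest UMI bin, where the share was 1.69% in the lowest and 1.90% in the highest Apoe bin (1.69 and 1.89% without shared sequences), and the suffixes of the top bin (1.98 to 2.13%) did not overlap those of the lowest bin (1.59 to 1.68%). Cells of 1 bin share libraries with those of the other bins, and no test was made.

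**Figure D2:**
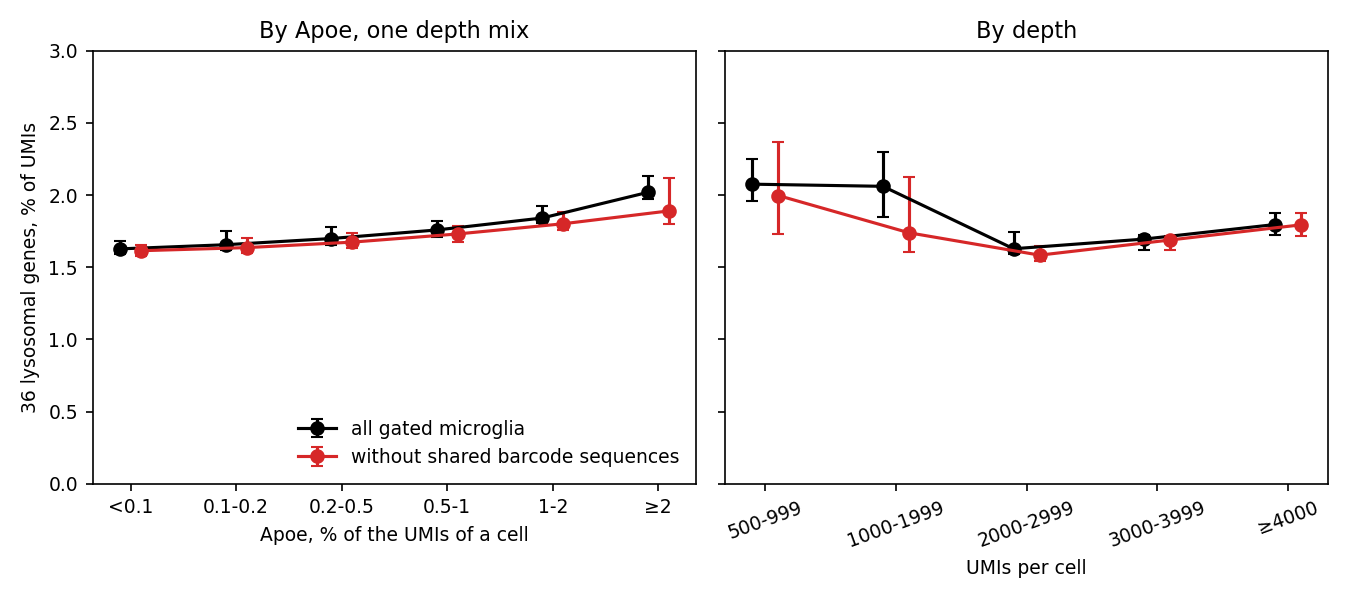
Summed share of UMIs on the 36 lysosomal genes (percent, y axis from 0) in gated microglia, by the share of UMIs on Apoe (left, each bin at the same mix of depths) and by UMIs per cell (right). Points are pooled cells, bars run from the lowest to the highest suffix, and red points leave out shared barcode sequences. On the left the share goes up at each step with and without them, and on the right the deepest cells, which hold few shared sequences, stay at 1.80 and 1.79%.

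Of 33 genes with a mean of at least 20 CPM over the top and the lowest Apoe bin, 24 were higher in the top bin at matched depth, where 36.9% of all 5417 such genes were. At each of the steps 12 of them were higher, where 4.93% of all genes were. These 12 were Lamp1, Hexa, Gusb, Man2b1, Npc2, Grn, Ppt1, Atp6v0e, Scarb2, Naaa, Pld3 and Creg1. Grn went from 1635 to 2776 CPM, Npc2 from 731 to 1283 and Hexa from 970 to 1359. Arsb alone was lower at each step, from 472 to 338 CPM, where 7.37% of all genes were, and Laptm5 went from 1902 to 1619 CPM with no steady order. Without shared barcode sequences 24 of 34 genes were higher in the top bin, where 31.9% of all genes were, 9 were higher at each step (Lamp1, Hexa, Gusb, Man2b1, Npc2, Grn, Ppt1, Naaa and Pld3), where 4.42% were, and Arsb was again the one lower at each step, where 6.71% were.

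Compared cell group by cell group, no lineage carried as large a lysosomal share as microglia. The share was 1.45% in monocyte-like, 1.06% in dendritic-like, 0.571% in choroid plexus-like, 0.471% in NK-like and 0.436% in granulocyte-like cells, which was 0.817, 0.598, 0.322, 0.266 and 0.246 of that in microglia. The 95% counting intervals of the last 2 groups overlapped (0.447 to 0.496% and 0.391 to 0.485%), and those of the other neighbours in this order did not. These intervals cover counting error only. Over suffixes, choroid plexus-like cells (0.476 to 0.644%, 4 suffixes) and NK-like cells (0.422 to 0.515%, 2 suffixes) did overlap. Median UMIs per cell were 4432, 5276, 1030, 1854 and 870 in the same order, against 2479 in microglia, and these differences in depth were not matched. Without shared barcode sequences the ratios were 0.854, 0.617, 0.329, 0.279 and 0.253. A few very abundant genes fill part of the total in some groups. The choroid plexus markers took 39.6% of that group's UMIs and the granulocyte markers 28.5%, and with each group's own markers left out of the total the ratios were 0.533 and 0.344.

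**Figure D3:**
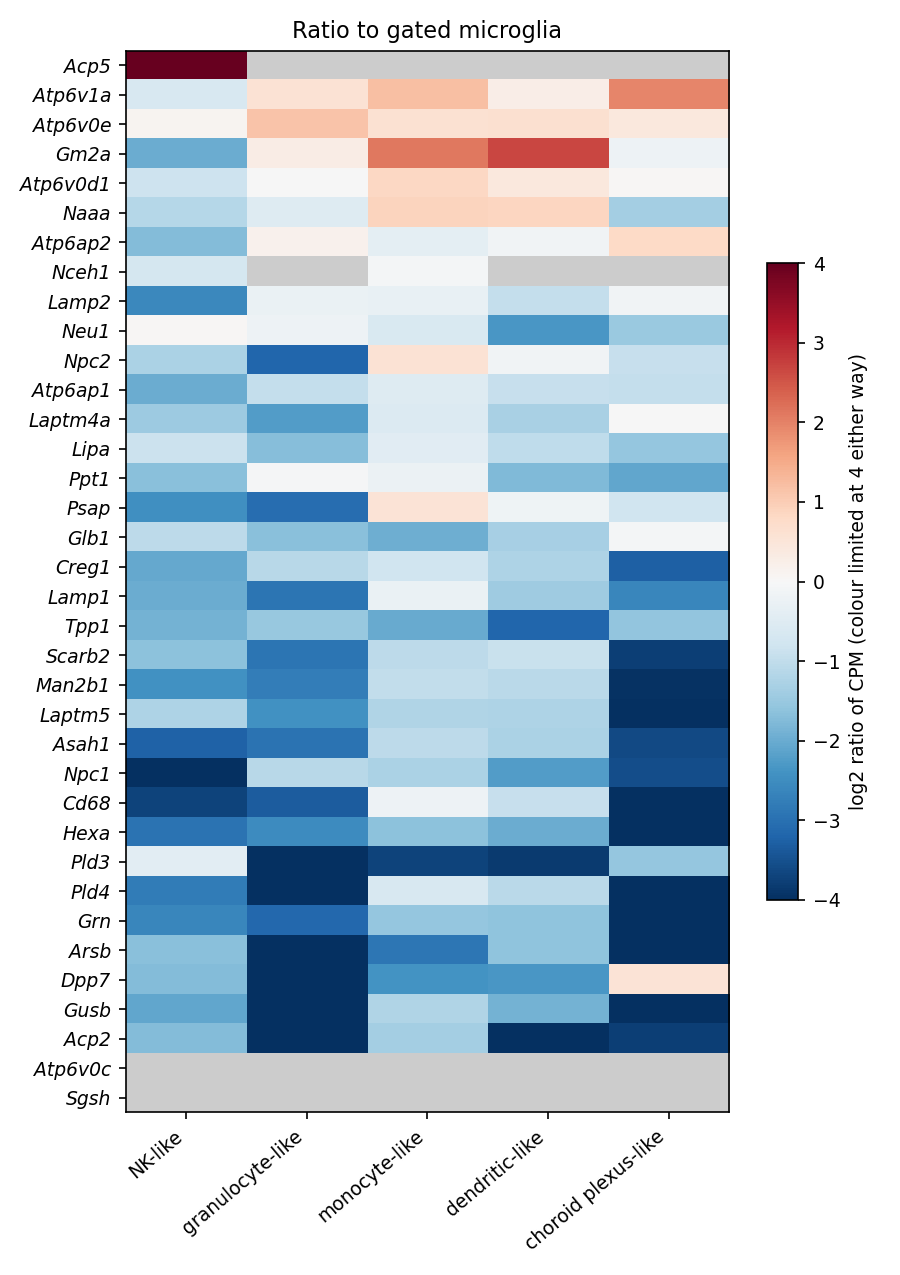
Ratio of CPM of each lysosomal gene in 5 gated groups to that in gated microglia, on a log2 colour scale limited at 4 either way, with red for higher and blue for lower. Grey cells are genes whose mean CPM over the compared groups was under 20, and the deepest blue in granulocyte-like cells includes Gusb, Acp2 and Dpp7, listed at 0 UMIs. Blue fills most of each column, and Gm2a is red in the dendritic-like and monocyte-like columns.

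RNA of genes high in microglia was found in all the other groups, and its level is given here because it bears on every ratio below. Ratios to microglia were taken over 8 genes of the microglial lists (Tmem119, P2ry12, Gpr34, Olfml3, Cst3, C1qa, C1qb and C1qc). They ranged from 0.0526 to 0.119 in NK-like, 0.00503 to 0.0718 in granulocyte-like and 0.0161 to 0.0756 in monocyte-like cells. In dendritic-like cells they ran from 0.00689 to 0.0990, and in choroid plexus-like cells from 0.0212 to 0.0657. Cst3 was the highest in monocyte-like, dendritic-like and choroid plexus-like cells, where the next were 0.0429, 0.0211 (both Olfml3) and 0.0289 (C1qc). Whether those groups express Cst3 themselves was not tested. All 6 genes of the second list are among the 8, so the gates capped the summed share of those 6. Of the lysosomal genes above 20 CPM, the whole interval lay above the highest of the 8 for 32 of 33 in monocyte-like, 26 of 32 in dendritic-like and 26 of 34 in NK-like cells. The same held for 19 of 32 in choroid plexus-like and 16 of 32 in granulocyte-like cells. The share of all genes above such a level was not counted, so the counts in this paragraph have no background beside them. Over all genes tested the median ratio was itself above the highest of the 8, at 1.08, 1.15, 1.22, 0.699 and 0.667 in this order. Of the gate genes left out here, Cx3cr1 had ratios of 0.127, 0.0291, 0.0902, 0.0399 and 0.0270 in NK-like, granulocyte-like, monocyte-like, dendritic-like and choroid plexus-like cells. Selplg, the P-selectin ligand of leukocytes in general, had ratios of 0.350, 0.223, 0.117, 0.212 and 0.0186 in the same order. With both added to the 8, the whole interval lay above the highest for 30 lysosomal genes in monocyte-like, 22 in dendritic-like, 5 in NK-like, 19 in choroid plexus-like and 11 in granulocyte-like cells, so the count for NK-like cells turns on whether Selplg is taken as microglial. How much of the remaining signal is microglial RNA was not tested.

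Monocyte-like cells, which bear the genes of Ly6C-high blood monocytes, kept most of the lysosomal share but in different proportions. Gm2a and Atp6v1a were past 2-fold higher, and 13 of the 33 genes above the floor were past 2-fold lower, where 20.2% of all 5491 genes tested were past 2-fold higher and 16.5% lower. All 15 kept their direction over the 3 suffixes that held 20 or more such cells, and all 15 were past 2-fold without shared barcode sequences too. The median ratio of the 33 was 0.659, against 1.08 over all genes tested. With mitochondrial and ribosomal protein genes left out of the totals, 4 were higher and 11 lower, Atp6v0d1 and Naaa joining the higher ones. The shares of all genes past 2-fold were not counted for these totals.

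Gm2a was at 677 CPM in monocyte-like cells (suffixes 612, 761 and 800) against 157 in microglia, a ratio of 4.31 (95% interval 3.98 to 4.66). No suffix of the microglia, at 144 to 167 CPM, came near these values. Atp6v1a was at 119 CPM (suffixes 84.9, 134 and 138) against 51.3, a ratio of 2.31 (1.91 to 2.78). At the other end, Pld3 was at 15.7 CPM (suffixes 0, 17.6 and 24.6) against 207, a ratio of 0.0761 (0.0426 to 0.126), and Arsb was at 58.7 CPM (suffixes 21.2, 46.5 and 79.1) against 435, a ratio of 0.135 (0.102 to 0.176). So the related nucleases parted here, since Pld4 had a ratio of 0.642.

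None of the other 11 lower genes encodes a V-ATPase subunit. Of the sugar-chain enzymes, Glb1 was at 21.0 CPM against 80.8 (ratio 0.260, suffixes 0.137 to 0.496), Hexa at 355 against 1105 (0.321, suffixes 0.295 to 0.358) and Gusb at 136 against 317 (0.430, suffixes 0.364 to 0.430). The peptidases Dpp7 and Tpp1 were at 8.39 against 43.5 CPM (0.193, suffixes 0.133 to 0.224) and at 45.1 against 183 (0.247, suffixes 0.119 to 0.325), and the phosphatase Acp2 was at 25.2 against 64.9 (0.388, suffixes 0.110 to 0.517). Dpp7 met the 20 CPM floor only through its level in microglia. Grn was at 705 CPM against 2041 (0.345, suffixes 0.250 to 0.402). Of the lipid genes, Npc1 was at 23.1 CPM against 55.2 (0.418, suffixes 0.287 to 0.614) and Asah1 at 239 against 490 (0.488, suffixes 0.435 to 0.488). Of the membrane proteins, Laptm5 was at 799 CPM against 1846 (0.433, suffixes 0.423 to 0.461) and Scarb2 at 93.4 against 193 (0.484, suffixes 0.427 to 0.50).

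Psap and Npc2 were on the higher side but short of 2-fold, with 4814 against 3279 CPM for Psap (ratio 1.47, suffixes 1.31 to 1.51) and 1376 against 923 CPM for Npc2 (ratio 1.49, suffixes 1.22 to 1.54). Cd68, widely used as a macrophage marker, was at 563 CPM against 644, and Naaa had a pooled ratio of 1.85 that lay outside its range within suffixes, 1.20 to 1.59. Acp5, under the 20 CPM floor, was at 25.2 CPM (24 UMIs) against 3.17.

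Dendritic-like cells shared the leading gene of the monocyte-like cells. Their gate also took cells that met the monocyte marker rule, and how many did was not counted, so the groups may not be separate cell types. Of their gate markers Cd209a held 855 UMIs, Clec10a 117, Flt3 76, Zbtb46 13 and Ccr7 0. Gm2a was at 995 CPM (964 and 1007 in the pair of suffixes with at least 20 cells), a ratio of 6.34 (5.69 to 7.05), and it was the only one of 32 genes past 2-fold higher, where 23.6% of all genes tested were. Past 2-fold lower were 20 of 32, against 17.6% of all genes. The lowest ratios were those of Acp2 (0.045, from 1 UMI, interval 0.00114 to 0.251), Pld3 (0.0706), Tpp1 (0.112), Neu1 (0.199) and Dpp7 (0.201, from 3 UMIs). Psap and Npc2 stayed near the microglial level at 0.887 and 0.904, and Cd68 was at 0.526. Naaa had a ratio of 1.83, and it passed 2-fold when mitochondrial and ribosomal protein genes were left out of the totals, with 2 genes then higher and 15 lower. The shares of all genes past 2-fold were not counted for these totals. In microglia Naaa differed 2.60-fold between suffixes, and all dendritic-like cells were in suffixes 4, 5 and 6. Its ratio here therefore cannot be told apart from that difference between suffixes.

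NK-like cells are lymphocytes that kill by released granules. Past 2-fold lower were 26 of 34 lysosomal genes, against 17.5% of all genes tested, and Acp5 alone was past 2-fold higher, where 23.7% of all genes were. Acp5, tartrate-resistant acid phosphatase, was at 52.4 CPM from 16 UMIs (52.1 and 60.9 in the pair of suffixes), a ratio of 16.5 (9.46 to 26.9) that became 52.8 without shared barcode sequences because the microglial level then fell to 0.981 CPM. With 3.17 CPM in microglia it passed the 20 CPM floor only through the NK-like cells, so its place above 2-fold was set by that filter and its ratio is a description. Genes that stayed near the microglial level were Atp6v0e (ratio 1.08), Neu1 (1.03, from 23 UMIs) and Pld3 (0.745, interval 0.547 to 0.990), the last being almost absent from monocyte-like cells. Cd68 was at 49.1 CPM against 644, and Grn at 331 against 2041.

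Most of the lower values in NK-like cells fell further when a cell was allowed less microglial RNA, by very different amounts. With the second microglial list held under 1% of UMIs in place of 3%, the summed ratio fell from 0.266 to 0.192. The ratio of Grn fell from 0.162 to 0.0303, that of Cd68 from 0.0763 to 0.0128, that of Pld4 from 0.143 to 0.0184 and that of Hexa from 0.130 to 0.0410. Laptm5 hardly moved, from 0.426 to 0.395, nor did Lamp2, from 0.169 to 0.154. Among the lower genes Glb1 rose from 0.486 to 0.612, no longer past 2-fold, and Npc1 rose from 0.0594 to 0.0747.

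**Figure D4:**
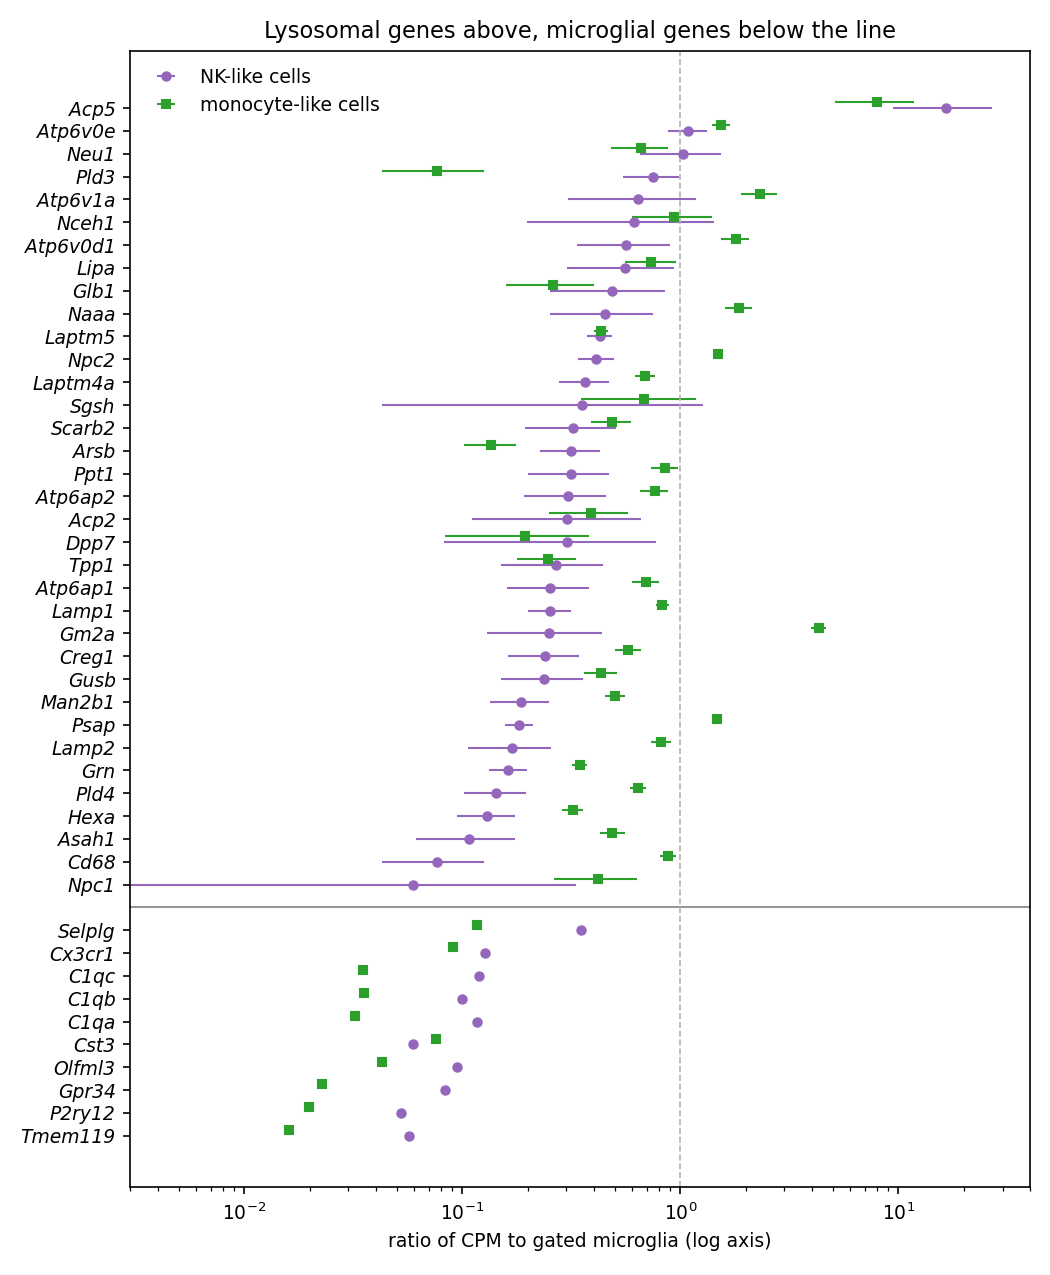
Ratio of CPM to gated microglia (log axis) for the lysosomal genes with at least 1 UMI in NK-like cells, above the line, and for the 8 microglial genes with Cx3cr1 and Selplg, below it. Circles are NK-like and squares monocyte-like cells, and bars are 95% counting intervals of the group. The 8 lie at or below 0.119, Cx3cr1 at 0.127 and Selplg at 0.350 in NK-like cells, Pld3 is higher in NK-like than in monocyte-like cells, and Gm2a is the reverse.

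Granulocyte-like cells were the smallest group, and no suffix held 20 of them. Atp6v0e was at 627 CPM from 49 UMIs (ratio 2.21, 1.63 to 2.92), the only one of 32 genes past 2-fold higher, where 18.7% of all genes tested were. Past 2-fold lower were 22, against 42.6% of all genes, so the share of genes lower was large for the whole transcriptome too. Gusb, Acp2 and Dpp7 were listed at 0 UMIs, which allows up to 38.4 CPM at 3 counts. Gusb was thus at least 8.26-fold lower, but for the other two the bound is short of 2-fold, and with these genes at their bound 20 were past 2-fold lower and the median ratio was 0.313 in place of 0.20. With the granulocyte markers out of the total, Atp6v1a joined Atp6v0e and 2 genes were higher and 20 lower. The shares of all genes past 2-fold were not counted for this total.

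In choroid plexus-like cells 1 listed subunit of the V-ATPase was past 2-fold higher, and none of the 20 listed genes past 2-fold lower encodes one. This holds for the listed genes tested only. Atp6v0c was under the 20 CPM floor, and of 10 further V-ATPase subunits tested 3 were higher and 3 lower, as given below. Atp6v1a was at 199 CPM (164 to 235 over 4 suffixes) against 51.3, a ratio of 3.89 (3.10 to 4.81), the only one of 32 genes past 2-fold higher, where 21.9% of all genes tested were. Past 2-fold lower were 20, against 40.9% of all genes, each in the same direction in all 4 suffixes. The other listed V-ATPase genes tested were not past 2-fold, with Atp6ap1 lowest among them at 0.517.

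The lowest ratios were no higher than the highest of the 8 microglial genes in these cells, 0.0657 for Cst3, the next being 0.0289 for C1qc. They were those of Grn (45.1 CPM, ratio 0.0221, suffixes 0.00465 to 0.0416), Gusb (7.12 CPM from 3 UMIs, 0.0225, suffixes 0 to 0.0393), Laptm5 (45.1 CPM, 0.0244, suffixes 0.0127 to 0.0428), Cd68 (23.7 CPM, 0.0368, suffixes 0.0155 to 0.0517), Pld4 (33.2 CPM, 0.0371, suffixes 0.0103 to 0.0540), Arsb (23.7 CPM, 0.0546, suffixes 0.0421 to 0.112), Hexa (64.0 CPM, 0.0579, suffixes 0.0404 to 0.0850) and Man2b1 (49.8 CPM, 0.0639, suffixes 0.0110 to 0.101). Next came Acp2 (4.74 CPM from 2 UMIs, 0.0731, suffixes 0 to 0.242), Scarb2 (14.2 CPM, 0.0738, suffixes 0 to 0.240), Asah1 (40.3 CPM, 0.0823, suffixes 0.0565 to 0.0955), Npc1 (4.74 CPM from 2 UMIs, 0.0860, suffixes 0 to 0.426), Creg1 (42.7 CPM, 0.104, suffixes 0.0406 to 0.139) and Lamp1 (173 CPM, 0.163, suffixes 0.0792 to 0.193). The least reduced of the 20 were Ppt1 (56.9 CPM, 0.237, suffixes 0.0984 to 0.292), Tpp1 (61.7 CPM, 0.337, suffixes 0.243 to 0.350), Pld3 (71.2 CPM, 0.344, suffixes 0.286 to 0.674), Lipa (28.5 CPM, 0.344, suffixes 0 to 0.562), Neu1 (26.1 CPM, 0.356, suffixes 0.332 to 0.376) and Naaa (42.7 CPM, 0.393, suffixes 0.133 to 0.642). Psap was still at 1879 CPM, and Lamp2 (0.904) and Laptm4a (0.988) were near the microglial level. With the choroid plexus markers out of the total, 4 genes were higher (Atp6v1a 6.44, Atp6ap2 2.85, Dpp7 2.44 and Atp6v0e 2.23) and 15 lower. Every ratio of the group rises by the same factor on this total. The shares of all genes past 2-fold were not counted for it, so these counts have no background beside them.

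Within microglia, 8 states were gated on small marker sets and compared with the other microglia at matched depth, with 1.5-fold as the limit. The state marked by Lpl, Fam20c, Mmp12 and Fabp5 (384 cells, 178 of them with a shared barcode sequence) had 7 of 33 lysosomal genes past 1.5-fold higher, where 6.41% of 5413 genes were. Each of the 7 was higher in all 5 suffixes that held 20 or more of these cells. Without shared barcode sequences 6 were higher, where 6.79% of all genes were, Npc2 being the one that was not. The median ratio of the 33 genes was 1.23, against 1.00 over all genes tested.

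Nceh1 led at 95.2 against 24.5 CPM, a ratio of 3.89 (3.21 to 4.66, suffixes 3.35 to 4.79) that was 4.26 without shared sequences. Dpp7 was at 112 against 40.1 CPM (ratio 2.80, suffixes 1.95 to 3.41), and Pld3 at 467 against 198 (ratio 2.35, suffixes 1.76 to 2.92). The other 4 were the membrane protein Cd68, the pump subunit Atp6v1a and the lipid genes Lipa and Npc2. Cd68 had 1240 against 635 CPM (ratio 1.95, suffixes 1.68 to 2.08), Atp6v1a 98.4 against 51.2 (ratio 1.92, suffixes 1.19 to 2.68), Lipa 127 against 81.3 (1.56, suffixes 1.24 to 1.91) and Npc2 1403 against 911 (1.54, suffixes 1.34 to 1.64). On the lower side of 1, but short of the limit, were Pld4 (0.716), Arsb (0.754), Gm2a (0.760) and Laptm5 (0.808). Psap, the most abundant gene of the list, had a ratio of 1.13.

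Microglia with at least 2% of their UMIs on Apoe (9329 cells) were set against those under 0.2% (9988 cells). Here 7 genes were past 1.5-fold higher, where 4.17% of all genes tested were, and 6 of them were higher in all 6 suffixes. Nceh1 was at 53.6 against 19.7 CPM (ratio 2.73, suffixes 2.07 to 5.84), Dpp7 at 76.8 against 34.1 (2.25, suffixes 1.13 to 3.61), Pld3 at 315 against 174 (1.81, suffixes 1.45 to 2.26), Npc2 at 1341 against 763 (1.76, suffixes 1.53 to 2.03), Glb1 at 124 against 70.7 (1.75, suffixes 1.67 to 1.82) and Grn at 3007 against 1727 (1.74, suffixes 1.53 to 2.02). Naaa (1.61) was the one with a suffix below 1, from 0.973 to 3.44. With 19.7 CPM in the reference, Nceh1 passed the 20 CPM floor only through the Apoe-high cells, so its ratio here is a description. Without shared barcode sequences only Nceh1 (2.49), Dpp7 (1.63) and Naaa (2.50) were past the limit, where 4.23% of all genes were, and Grn stood at 1.38, Npc2 at 1.47, Glb1 at 1.48 and Pld3 at 1.23. Arsb was at 0.706. Acp5, below the floor, had a ratio of 10.7.

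The state with Spp1 at 0.1% or more and Apoe at 1% or more (1149 cells, 824 with a shared sequence) also had 7 genes past 1.5-fold higher, where 5.42% of all genes were. Nceh1 was at 69.0 against 27.9 CPM (ratio 2.48, suffixes 2.02 to 3.18), Dpp7 at 92.2 against 45.9 (2.01, suffixes 1.37 to 2.88), Pld3 at 422 against 212 (1.99, suffixes 1.56 to 2.68), Gusb at 538 against 324 (1.66, suffixes 1.33 to 2.03), Glb1 at 134 against 85.1 (1.57, suffixes 1.27 to 1.86) and Npc2 at 1484 against 957 (1.55, suffixes 1.41 to 1.75). Naaa had a ratio of 1.60 and ranged from 0.847 to 1.79 over suffixes, and the other 6 were higher in all 6. Without shared sequences 3 were past the limit, Naaa (2.15), Nceh1 (2.00) and Gusb (1.58), where 6.11% of all genes were, and Pld3 fell to 1.16. This gate and the Apoe-high gate hold cells in common, so the lists are not independent. The 6 genes of the microglial gate took 0.816% of UMIs here, 0.839% in the Lpl state and 0.974% in Apoe-high cells. In all gated microglia they took 1.39%. Whether these states hold bone marrow-derived macrophages was not tested.

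**Figure D5:**
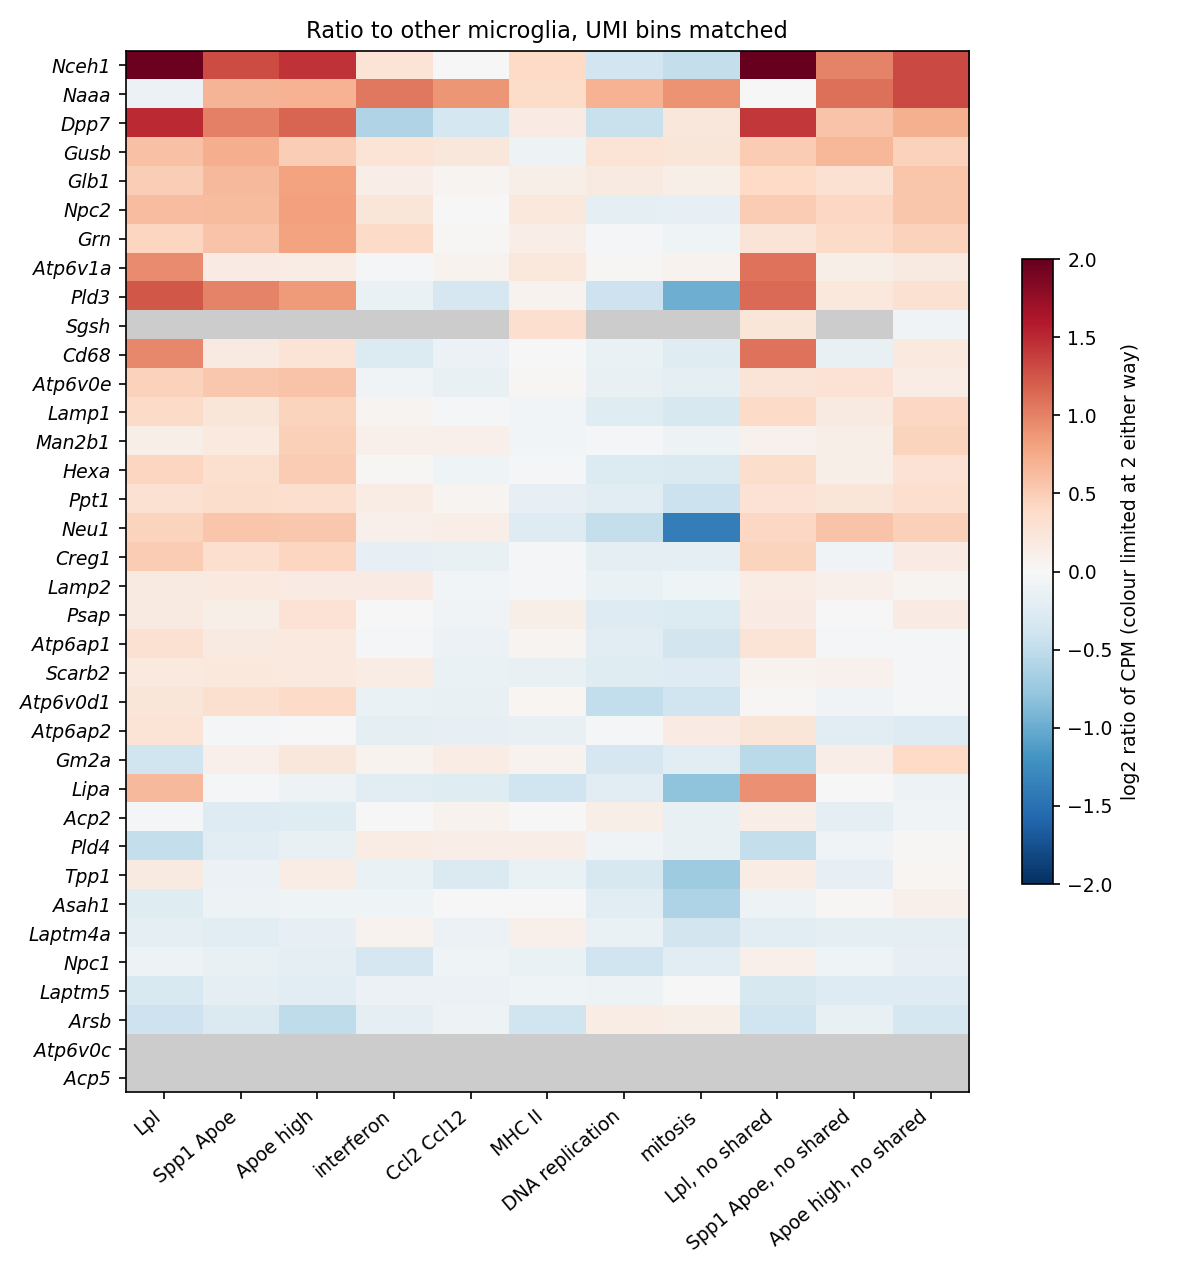
Ratio of CPM of each lysosomal gene in a microglial state to the other microglia at the same mix of UMI bins (for Apoe high, to microglia with Apoe under 0.2%), on a log2 colour scale limited at 2 either way, with the last 3 columns leaving out shared barcode sequences. Grey marks genes under 20 CPM. Nceh1 is red in the Lpl, Spp1 Apoe and Apoe high columns with and without shared sequences, and Naaa is red in most other states.

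Naaa was the gene most often past the limit. In the interferon state (Ifit1, Isg15 and related genes, 508 cells) it was at 272 against 132 CPM, a ratio of 2.07 (1.89 to 2.25, suffixes 1.42 to 3.00), the only lysosomal gene past 1.5-fold higher, where 5.47% of all genes were. In the Ccl2 and Ccl12 state (2745 cells) it was again the only one, at 208 against 112 CPM, a ratio of 1.85 (suffixes 1.59 to 2.06), where 2.06% of all genes were higher. In DNA replication (Mcm genes, Hells and Rrm2, 727 cells) it was the only one at a ratio of 1.62, where 13.6% of all genes were higher, but the suffixes ran from 0.831 to 2.07. In mitosis (Top2a, Mki67 and related genes, 204 cells) it was at 259 against 138 CPM, a ratio of 1.87 (suffixes 1.02 to 2.88), the only one past the limit where 27.3% of all genes were. Naaa also had the widest spread between suffixes among the listed genes over 20 CPM in microglia, and it was lower in shallow cells, as given above.

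In dividing cells most lysosomal genes had ratios below 1, 28 against 8 above in DNA replication and 29 against 7 in mitosis. These counts take in the listed genes under the 20 CPM floor. Of all genes tested, which met the floor, 63.0% had ratios above 1 in DNA replication and 64.7% in mitosis. In DNA replication 0 of 33 were past 1.5-fold lower, where 1.8% of all genes were. In mitosis 5 genes were past 1.5-fold lower, where 8.01% of all genes were, and each was lower in all 5 suffixes. Neu1 was at 27.9 against 72.5 CPM (ratio 0.385, suffixes 0.222 to 0.518), Pld3 at 103 against 201 (0.510, suffixes 0.334 to 0.668), Lipa at 46.9 against 81.9 (0.573, suffixes 0.214 to 0.769), Tpp1 at 112 against 182 (0.613, suffixes 0.418 to 0.867) and Asah1 at 323 against 496 (0.652, suffixes 0.527 to 0.744), and without shared barcode sequences Asah1 was the one no longer past the limit (0.672). The median ratio of the 33 genes tested was 0.859 in mitosis and 0.873 in DNA replication, against 1.15 and 1.08 over all genes. Without suffix 4, DNA replication had 2 genes past the limit in place of 1.

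In the interferon state Dpp7 was the one gene past the limit on the lower side, at 0.658 with suffixes from 0.323 to 1.06, and the count of 2 in this state became 1 without suffix 1, 2, 5 or 6 and without shared sequences. Grn was at 1.31 there. MHC class II-high microglia (484 cells) had 0 of 34 lysosomal genes past 1.5-fold in either direction, where 2.57% of all genes were higher and 2.86% lower, with the largest ratios for Nceh1 (1.32) and Naaa (1.29). Without suffix 1 the count was 3, with no share of all genes counted for that setting. Ddit4 and Tsc22d3-high microglia (1931 cells, 1857 with a shared sequence) had Naaa past the limit on the lower side, at 0.615, where 1.34% of all genes were, and this turned to 1.15 without shared sequences, so no direction was drawn from that state. Its count of 1 became 2 without suffix 2 and 0 without suffix 4 or 6.

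Other lysosomal genes that are not on the list were read the same way. In the Lpl state 6.41% of all genes tested were past the limit higher and 6.13% lower (6.79 and 6.1% without shared barcode sequences). In Apoe-high microglia these shares were 4.17 and 5.13% (4.23 and 4.45% without them), and in monocyte-like cells 20.2 and 16.5%. The same shares apply to the lists in the next paragraphs. Among 29 further hydrolases and membrane proteins, 6 of 26 tested were past 1.5-fold higher and 0 lower in the Lpl state, led by Gla (alpha-galactosidase, 3.55) and the tetraspanin Cd63 (2.86), with Arsa (0.720) and Pla2g15 (0.823) lowest. With shared barcode sequences left out 5 of 26 were higher, again led by Gla (3.89) and Cd63 (2.71), and Arsa was past the limit on the lower side (0.646). In Apoe-high microglia 4 of 25 were higher and 0 lower, led by Cd63 (4.02), with Pla2g15 (0.753) and Lgmn (0.870) lowest, and without shared barcode sequences 3 of 26 were higher and 0 lower, led by Cd63 (4.33). In monocyte-like cells 1 of 24 was past 2-fold higher (Tmem192, 2.76), 10 were lower, Cd63 among them (0.0736), and Scpep1 was next on the higher side (1.88). In NK-like, granulocyte-like, dendritic-like and choroid plexus-like cells, 12 of 21, 15 of 21, 11 of 22 and 12 of 19 of these genes were past 2-fold lower and 0, 0, 3 and 1 higher. Of all genes tested, 17.5, 42.6, 17.6 and 40.9% were lower and 23.7, 18.7, 23.6 and 21.9% higher in the same order. In granulocyte-like and choroid plexus-like cells the share lower was thus large for all genes too.

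Among 11 further V-ATPase subunits, 10 were tested. In choroid plexus-like cells 3 were past 2-fold higher, led by Atp6v1d (5.43) and Atp6v1e1 (4.91), and 3 were lower, with Atp6v0a2 (0.177) and Atp6v0b (0.364) lowest. Of all genes tested there, 21.9% were higher and 40.9% lower. In the Lpl state 0 were higher and 1 lower, with Atp6v1b2 (1.37) and Atp6v1d (1.35) highest and Atp6v0a2 (0.438) and Atp6v0a1 (0.928) lowest (1 higher, Atp6v1d, and 1 lower without shared barcode sequences), and in Apoe-high microglia none was past the limit, with ratios from 0.804 to 1.29. In monocyte-like cells 0 were higher and 1 lower, Atp6v1e1 (1.90) and Atp6v1f (1.81) being highest and Atp6v0a2 (0.459) and Atp6v1c1 (0.563) lowest.

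Of 9 genes for sorting and regulation, Gnptg, a subunit of the enzyme that tags hydrolases with mannose 6-phosphate, was the one past the limit in the Lpl state (1.73) and in Apoe-high microglia (1.54). When shared barcode sequences were left out it was past the limit in the Lpl state (1.59) and none of the 6 tested was in Apoe-high microglia. Tfeb had ratios of 1.33 and 0.888 and Tfe3 of 0.755 and 0.677 in these states, and none of these was past 1.5-fold. In monocyte-like cells Tfec, a relative of Tfeb, was past 2-fold higher, and 3 of the 7 tested were lower, with Sort1 (0.144) and Tfe3 (0.307) lowest and M6pr next highest at 0.975.

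Across 15 gated groups, the patterns of levels were also compared gene by gene with 2692 genes of at least 50 CPM in microglia, by Spearman's rho over groups that share libraries. The genes most like Hexa were Scarb2 (0.99), Creg1 (0.98) and Grn (0.97), all on the list. Nceh1 was most like Hexa and Creg1 (both 0.95) and Ctsz (0.95), Lamp1 most like the protease gene Ctsb (0.96), and Pld3 most like Fam20c (0.98), a marker of the Lpl gate. Gm2a was most like Ifitm3 (0.91), a gene off the list, and Naaa most like Pycard (0.89). These neighbours changed when shared barcode sequences were left out. Hexa was then most like Ctsb, Lamp1 and Creg1 (0.98, 0.97 and 0.97), Nceh1 most like Hmox1 (0.94), Pld3 most like Abca1 (0.95), Gm2a most like Ptpn6 (0.90) and Naaa most like Acer3 (0.90), while Lamp1 was again most like Ctsb (0.98). The values describe the groups and carry no test.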

How the data were processed

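RNA from CD45+ brain cells of 6 tumor-bearing mice was measured with the Chromium 3′ v2 kit. Per the labels' processing notes the authors used Cell Ranger 3.1 and Seurat 3.1.5 with mm10. The deposited matrix holds raw UMI counts per gene and barcode for the 6 libraries together.

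The 36 genes, gene lists and gates were chosen with earlier results of these data known. Barcodes with more than 200 and at most 2500 genes and under 5% mitochondrial UMIs were kept (38751 of 40411). No doublet caller was run. A lineage gate needed at least 2 marker genes (choroid plexus 3) with 4 UMIs, and granulocytes also 1% of UMIs. A cell that met such a marker rule but not the limit on microglial RNA was left out of every group, microglia included. A state needed at least 2 marker genes with 3 UMIs, or a share of UMIs: 0.3% for MHC class II (besides the genes) and for Ddit4 with Tsc22d3, and 1% for Ccl2 with Ccl12. Depth totals per suffix were 9745192 to 24393841 UMIs. UMI counts were summed per group and divided by its total. Genes with a mean of at least 20 CPM over both groups entered counts past 2-fold (lineages) or 1.5-fold (states). A gene under 20 CPM in a lineage could thus be counted as lower through its level in microglia alone. Examples are Dpp7 in monocyte-like cells and Dpp7 and Acp2 in dendritic-like cells. Gusb, Acp2, Npc1 and Scarb2 in choroid plexus-like cells are others. For states the reference was weighted to the state's UMI bins. Intervals are exact Poisson, with the error of the reference ignored, and a count of 0 was read as up to 3 counts. The matrix is pooled and the labels give no map from suffix to sample, so no test was made, and suffixes were neither assigned to mice by their cell numbers nor treated as replicates.

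All members are accounted for. Full values are given for the 12 highest in microglia and for each member past the fold in the same direction in every suffix with at least 20 cells (at least 3 such suffixes). The 2 highest and 2 lowest ratios name the genes of the other lists, except a few that are not reported here. Other named members were chosen after their values were seen.

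Alternatives were the gene limit, a minimum of 1000 UMIs, the microglial RNA limit, no CPM floor with 1 CPM added, no weighting by depth, totals without mitochondrial and ribosomal protein genes, and each suffix left out. Leaving out shared barcode sequences, or a group's own markers from the total, and adding Cx3cr1 and Selplg to the 8 microglial genes were chosen after seeing the data. Steps were tested on simulated data. Python 3.11.15, numpy 2.4.6, pandas 2.3.3 and scipy 1.17.1 were used.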

Additional observations from a re-analysis of the deposited data

How the results depend on the processing

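With each suffix left out in turn, the share in microglia ran from 1.76 to 1.79%. The ratio to microglia ran from 0.252 to 0.295 (NK-like), 0.581 to 0.635 (dendritic-like) and 0.314 to 0.341 (choroid plexus-like), the ratio of the shallow to the middle UMI bin from 1.26 to 1.29, and counts past 1.5-fold from 1 to 2 (interferon, DNA replication), 0 to 3 (MHC class II) and 0 to 2 (Ddit4). The microglial share was 1.77% with no gene limit, 1.75% from 1000 UMIs and 1.70% without shared barcodes. The granulocyte-like ratio of 0.246 became 0.173 from 1000 UMIs, and 0.344 without its own markers, which took the choroid plexus-like ratio to 0.533. The NK-like ratio became 0.192 under the stricter limit on microglial RNA. Without mitochondrial and ribosomal protein genes the ratios were 0.308 (NK-like), 0.709 (dendritic-like) and 0.931 (monocyte-like), and without shared barcodes the last was 0.854. The UMI-bin ratio of 1.27 was 1.22 in cells with Apoe under 0.2% and 1.26 without shared barcodes.

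Without depth weighting the counts were 11 (Apoe high), 6 (Ddit4), 2 (DNA replication) and 1 (MHC class II). The shares of all genes past the limit were not counted without weighting or with a suffix left out. Those counts therefore have no background beside them. Without shared barcodes 3 (Apoe high), 3 (Spp1 Apoe) and 1 (interferon) were higher, where 4.23, 6.11 and 5.71% of all genes were. In the Ddit4 state, then 74 cells, 2 of 33 were lower, where 15.3% of all genes were. The share for all barcodes was 1.34%, so the 2 are no rise against the background. The interferon count was also 1 with no gene limit, from 1000 UMIs and without mitochondrial and ribosomal protein genes. The summed ratio of the Ddit4 state turned from 0.969 to 1.01 from 1000 UMIs and to 1.13 without weighting, and Naaa there to 1.15 without shared barcodes. The cause of these changes was not tested. Of 1946 values of members past the fold under an alternative, 1850 kept their direction and stayed within 1.5-fold, 95 moved further and 1 reversed. This total includes settings that could not move a value, such as depth weighting for lineages and the microglial RNA limit for states. The 1850 therefore overstates how stable the values were. No paired analysis was possible because the barcodes carry no replicate number of the labels. Groups of 59 to 217 cells limit the lower genes to a few UMIs.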

Other observations

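Barcodes outside the gates carried the lysosomal genes too. In the 893 barcodes with more than 2500 genes the summed share was 1.65%, in the 762 with 5% or more mitochondrial UMIs it was 2.09%, and in the 2842 kept barcodes that met no gate it was 1.87%. These values were not compared between conditions.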
